A study of Mus musculus with 9 samples.

Results

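The genes examined were 10 genes for RNA-binding proteins, most of which are known for their roles in neurons and neural progenitors: Rbfox1, Rbfox3, Celf2, Celf4, Nova1, Elavl2, Elavl4, Rbms1, Rbms3 and Msi2. They were taken by name, and a differentially methylated region (DMR) of the authors' deposited table was counted for a gene when it overlapped the gene body in GENCODE M21 or the 1000 bp upstream of it. This gave 25 of the 12949 DMRs in the table, in 6 of the 10 genes. All values came from the hypothalamus of male C57/Bl6 mice on postnatal day 6. Modified maternal separation (MMS) pups were kept apart from the dam and turned onto their backs for 1.5 h daily from day 4 to day 6, and control pups were littermates without MMS. DNA from 10 males per group was pooled into 3 libraries per group, so each library mixed several animals. Methylated DNA immunoprecipitation (meDIP) was sequenced, in which an antibody against methylated cytosine enriches DNA fragments, so that reads over a region increase both with the level of methylation and with how many sites can carry it. In whole tissue, a change of methylation within cells and a change in the mixture of cells cannot be told apart.

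RNA-binding proteins of these families act on transcripts after they are made. RBFOX and NOVA proteins bind short motifs in pre-mRNA and decide which exons of synaptic and ion channel transcripts are kept. CELF proteins bind GU-rich RNA and act on splicing, stability and translation. The neuronal ELAV (Hu) proteins bind AU-rich stretches and stabilise transcripts during neuronal differentiation, Musashi proteins control translation in neural progenitors, and the RBMS proteins bind single-stranded nucleic acid and AU-rich RNA. RBMS proteins and MSI2 are known in many tissues besides brain, and DNA values from whole hypothalamus do not show which cells carried a DMR. Most of these genes are very long, with introns that make up nearly all of their length.

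The deposited table gave the authors' log2 mean of normalised reads for the 3 control pools and for the 3 MMS pools. It held no value per pool, so no spread between pools, confidence interval or test between the groups could be computed, and it gave no read depth. All regions in it had already been selected by the authors as different between the groups, so the difference itself is a description here and not a finding. A gene without a DMR may have had no peak, or peaks that were not selected. Each group had a lowest value in the table, -0.17 in control and -0.24 in MMS, which stand for 0.889 and 0.847 normalised reads, and the size of a difference against a group at this value depends on where it was set. A group was taken as at its lowest value when within 0.5 of it.

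Stretches of the reference sequence (GRCm38, which is mm10) are shown for DMRs on which the description turns, read 5′ to 3′ on the strand of the gene with CpG sites in capitals. In the first pair, both from Msi2, MMS was higher and control was above its lowest value. The central 300 bp of each are given, chr11:88688788-88689087 and chr11:88684778-88685077 on the minus strand.
Msi2 DMR 1: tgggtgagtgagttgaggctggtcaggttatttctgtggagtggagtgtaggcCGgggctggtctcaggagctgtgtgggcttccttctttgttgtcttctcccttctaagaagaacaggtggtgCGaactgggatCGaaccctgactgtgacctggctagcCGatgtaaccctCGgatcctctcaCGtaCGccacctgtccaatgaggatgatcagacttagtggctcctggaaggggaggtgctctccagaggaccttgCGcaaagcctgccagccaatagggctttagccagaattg
Msi2 DMR 2: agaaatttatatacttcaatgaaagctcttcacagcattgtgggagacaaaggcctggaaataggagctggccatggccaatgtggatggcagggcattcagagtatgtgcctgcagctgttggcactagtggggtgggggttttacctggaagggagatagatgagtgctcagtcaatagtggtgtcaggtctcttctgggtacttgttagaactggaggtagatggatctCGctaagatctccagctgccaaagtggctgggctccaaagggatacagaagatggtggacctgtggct

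The second pair lies in the same intron of Rbfox3, where neighbouring DMRs had opposite directions. The central 300 bp are chr11:118599727-118600026, higher in MMS, and chr11:118596860-118597159, higher in control, both on the minus strand.
Rbfox3 DMR 3: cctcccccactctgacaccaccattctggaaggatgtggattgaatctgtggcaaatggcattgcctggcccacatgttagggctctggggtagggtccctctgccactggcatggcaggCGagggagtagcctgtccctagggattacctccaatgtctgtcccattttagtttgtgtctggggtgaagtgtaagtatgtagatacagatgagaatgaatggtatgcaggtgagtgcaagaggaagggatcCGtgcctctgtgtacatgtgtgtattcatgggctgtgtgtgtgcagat
Rbfox3 DMR 4: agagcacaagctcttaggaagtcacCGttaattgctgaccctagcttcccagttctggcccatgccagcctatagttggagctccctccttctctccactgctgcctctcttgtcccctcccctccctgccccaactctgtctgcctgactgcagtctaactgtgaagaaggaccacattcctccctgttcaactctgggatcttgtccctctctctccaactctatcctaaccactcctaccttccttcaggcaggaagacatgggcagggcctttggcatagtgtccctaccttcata

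From Rbms3, 4 DMRs are given because they span the range of CpG content and of direction in that gene. They are DMR 8 with the most CpG sites per 100 bp of all 25 (central 300 bp, chr9:116793271-116793570), DMR 7 with no CpG site (chr9:116901186-116901375), DMR 3, which reaches into a coding exon (chr9:117110100-117110265), and DMR 9, where MMS was at its lowest value (chr9:116729340-116729499). All are on the minus strand.
Rbms3 DMR 8: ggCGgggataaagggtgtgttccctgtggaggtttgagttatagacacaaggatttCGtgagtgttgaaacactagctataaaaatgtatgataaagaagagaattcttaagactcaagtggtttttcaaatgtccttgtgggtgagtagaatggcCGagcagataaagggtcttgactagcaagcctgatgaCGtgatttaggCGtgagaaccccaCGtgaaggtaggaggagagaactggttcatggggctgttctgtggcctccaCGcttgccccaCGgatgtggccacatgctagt
Rbms3 DMR 7: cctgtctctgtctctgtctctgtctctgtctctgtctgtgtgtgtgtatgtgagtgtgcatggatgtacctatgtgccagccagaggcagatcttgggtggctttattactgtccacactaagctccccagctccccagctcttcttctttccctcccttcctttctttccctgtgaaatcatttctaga
Rbms3 DMR 3: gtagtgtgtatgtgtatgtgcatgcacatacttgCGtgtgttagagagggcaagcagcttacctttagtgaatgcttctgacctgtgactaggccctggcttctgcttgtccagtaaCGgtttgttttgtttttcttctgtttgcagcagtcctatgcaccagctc
Rbms3 DMR 9: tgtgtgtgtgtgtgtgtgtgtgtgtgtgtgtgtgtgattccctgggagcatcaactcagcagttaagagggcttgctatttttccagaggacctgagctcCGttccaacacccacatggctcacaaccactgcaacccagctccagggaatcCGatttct

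From Rbfox1, DMR 1 is given whole (chr16:6021339-6021520, plus strand) as an example of a region where control was at its lowest value.
Rbfox1 DMR 1: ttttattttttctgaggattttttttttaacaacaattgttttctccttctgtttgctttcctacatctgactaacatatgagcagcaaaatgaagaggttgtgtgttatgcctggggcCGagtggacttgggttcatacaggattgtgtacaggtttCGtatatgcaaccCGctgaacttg

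Of the 25 DMRs, 19 gained reads in MMS and 6 lost them, a share of gains of 76.0% where the whole table had 62.6%. The 95% Wilson interval of the 76.0% ran from 56.6% to 88.5%, which takes in the share of the whole table. It covers counting error only and treats the 25 DMRs as independent, although 10 of them lie in Rbms3. The interval is therefore no test against the table. On the log2 scale, with control subtracted from MMS, the median was 3.81 in the 19 and -1.73 in the 6, where the whole table had 3.43 and -1.73. Control was at its lowest value in 12 of the 19 (63.2%), against 52.7% of DMRs higher in MMS in the table. In these 12 the MMS mean lay between 3.53 and 4.43, or 11.6 to 21.6 normalised reads. With every DMR at a lowest value left out, 12 remained, of which 58.3% were higher in MMS, with a median difference of 2.38. The 62.6% of the whole table includes DMRs at a lowest value, so it is no like value for the 58.3%. Among all listed DMRs, control was at its lowest value in 4274 of 8105 gains, and MMS in 223 of 4844 losses. Leaving these out would leave fewer gains than losses there.

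**Figure D1:**
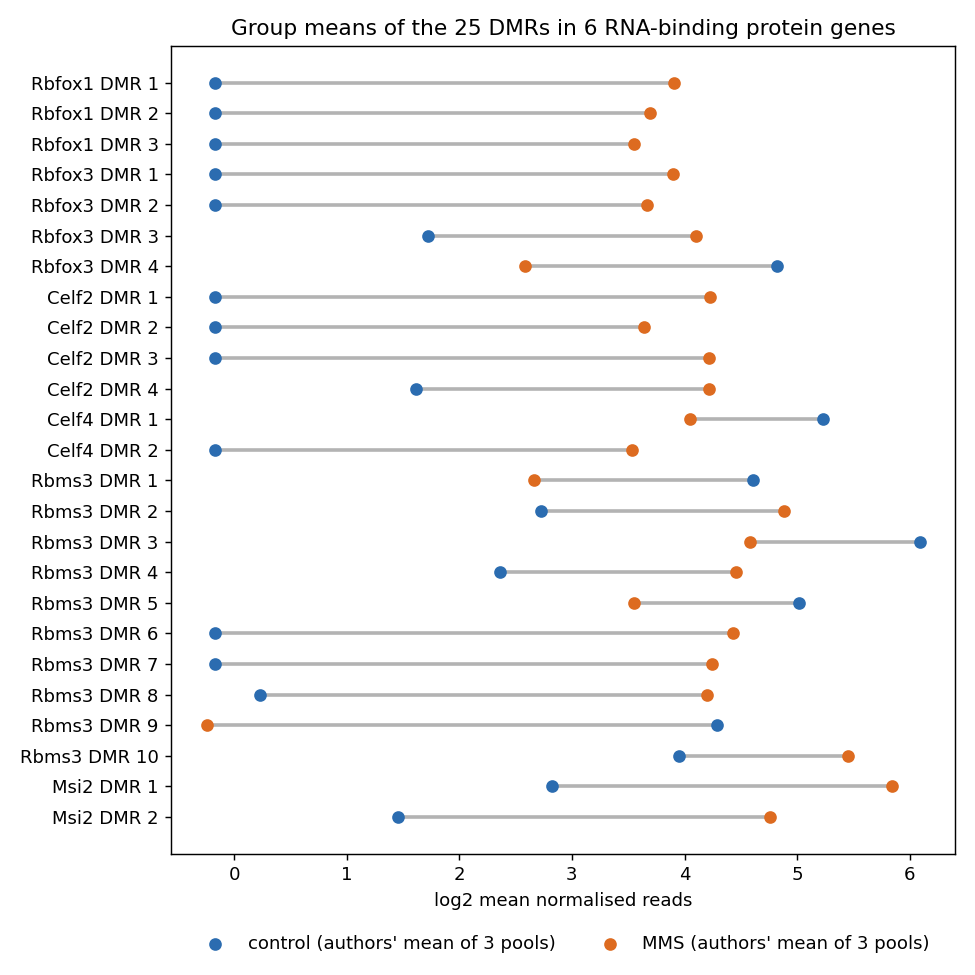
Log2 mean normalised reads (x axis) of each of the 25 DMRs, numbered from the start of its gene, in control (blue) and MMS (orange), each point the authors' mean of 3 pools. Control sits at -0.17 in all 3 DMRs of Rbfox1 and in 3 of 4 in Celf2, while the DMRs of Rbms3 cross in both directions.

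By family, RBFOX genes held 7 (6 higher in MMS), CELF genes 6 (5 higher in MMS), Rbms3 10 (6 higher in MMS) and Msi2 2 (both higher in MMS). Nova1, Elavl2, Elavl4 and Rbms1 held 0.

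Rbfox1, whose protein binds GCAUG in introns and controls neuronal exons, is 1526 kb long on chromosome 16 (5885355 to 7411526, plus strand). It had 3 DMRs and in each MMS was higher while control sat at -0.17, its lowest value. The MMS means were 3.91 in DMR 1 (6021339 to 6021520), 3.69 in DMR 2 (6701215 to 6701506) and 3.55 in DMR 3 (7171300 to 7171507), which are 15.0, 12.9 and 11.7 normalised reads. The log2 differences were therefore alike, 4.08, 3.86 and 3.72. All 3 were narrow, 182, 292 and 208 bp, and each held 3 CpG sites. They were far apart, 136, 816 and 1286 kb from the gene start, so that gaps of 679694 bp and 469793 bp separated them. DMR 1 and DMR 2 lay upstream of the first exon of the transcript with the longest coding sequence, in introns of longer transcripts, and DMR 3 lay in its first intron, 22.3 kb from the nearest annotated start. DMR 2 was soft-masked as repeat over 97.6% of its length and had 2 alignments of at least 100 bp and 95% identity in the reference, itself included, of which 1 covered at least 90% of it. DMR 1 and DMR 3 each had 1, themselves.

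Rbfox3 encodes the protein known as NeuN, the usual marker of neuronal nuclei, and spans 422 kb on chromosome 11 (118489762 to 118911597, minus strand). It had 4 DMRs, 3 higher in MMS. In DMR 1 (118702722 to 118702907) and DMR 2 (118681808 to 118682289), both in the second intron of the transcript with the longest coding sequence, control was at -0.17 and MMS at 3.90 and 3.67. These differences, 4.07 and 3.84, were of the size seen in Rbfox1. The fourth intron held the other pair. DMR 3 (118599315 to 118600437) rose from 1.72 in control to 4.10 in MMS, a difference of 2.38, and DMR 4 (118596571 to 118597447) fell from 4.82 to 2.58, a difference of -2.24. The gap between them was 1867 bp, so a gain and a loss of similar size stood next to each other within 1 intron. DMR 3 also had 2 alignments in the reference, itself included, of which 1 covered at least 90% of it. It had 16 CpG sites in 1123 bp and DMR 4 had 7 in 877 bp, and the CpG content of both was below or near that of the gene as a whole (0.99 and 0.56 times). The central stretch of DMR 4 printed above held 1 CpG site, with a GC content of 54.0%.

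Celf2, a regulator of splicing and mRNA stability, is 970 kb long on chromosome 2 (6539694 to 7509563, minus strand), and each of its 4 DMRs was higher in MMS. A group of 3 lay in the middle of the gene, 410, 438 and 480 kb from its start. There control was at -0.17 and MMS at 4.23 in DMR 1 (7099338 to 7100189), 3.64 in DMR 2 (7071354 to 7071865) and 4.22 in DMR 3 (7029289 to 7030139). These were wider than the DMRs of Rbfox1, at 852, 512 and 851 bp. All 3 lay upstream of the first exon of the transcript with the longest coding sequence, and DMR 2 was 9.60 kb from the nearest annotated start, the closest of the 25. DMR 4 (6541566 to 6541852) was the only DMR of the 25 whose centre was not in an intron. It lay wholly in the last exon, exon 14, of 7075 bp, in the 3′ UTR, at 99.8% of the gene's length. Its mean was 1.62 in control and 4.22 in MMS, a difference of 2.60, and it had 2.09 CpG per 100 bp, 2.98 times the density over the gene.

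Celf4, which binds mRNAs of synaptic proteins in excitatory neurons, spans 277 kb on chromosome 18 (25477632 to 25754157, minus strand). Its 2 DMRs had opposite directions. DMR 1 (25734745 to 25734918), in the first intron and 19.3 kb from the gene start, was lower in MMS, at 5.23 in control and 4.05 in MMS. This difference of -1.18 was the smallest of the 25, and both groups had well over 10 normalised reads, 37.5 and 16.6. DMR 2 (25639361 to 25639942), in the second intron, had control at -0.17 and MMS at 3.53, the lowest higher-group mean of the 25.

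Rbms3, whose protein binds AU-rich stretches of RNA, held 10 DMRs, the most of the genes examined. It is 1057 kb long on chromosome 9 (116572746 to 117629913, minus strand). By DMR count it stood eighth among the 21938 protein-coding genes, a rank that 3 genes with 10 DMRs shared. Its DMRs lay from 242 kb to 1033 kb from the gene start, the first of them at 22.9% of its length. Gains in MMS made up 6 of them (DMRs 2, 4, 6, 7, 8 and 10) and losses 4 (DMRs 1, 3, 5 and 9). Of its 9 pairs of adjacent DMRs, 7 had opposite directions, where over all adjacent pairs within protein-coding genes this share was 45.6%. In all 10 genes it was 9 of 19 pairs, or 47.4%.

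The strongest contrast in Rbms3 was between DMR 9 and its neighbours. DMR 9 (116729340 to 116729499) had 4.29 in control and -0.24 in MMS, the only DMR of the 25 with MMS at its lowest value, and its difference of -4.53 was the largest fall. This was 1 of 6 losses (16.7%), where 4.6% of all losses in the table had MMS at its lowest value. DMR 9 was the narrowest of the 25 at 160 bp, and 95.6% of it was soft-masked as repeat. DMR 8, at 116793266 to 116793574, had 0.23 in control, within 0.5 of its lowest value, and 4.20 in MMS, and DMR 10, at 116595954 to 116596920, had 3.95 and 5.45. A region listed as lost in MMS thus lay between a pair listed as gained, both in sequence that was mostly not repeat (7.77% and 10.7% masked).

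Besides DMR 8, control was at its lowest value in DMR 6 (116949238 to 116949527) and DMR 7 (116901186 to 116901375), both in the fifth intron of the transcript with the longest coding sequence. MMS was at 4.43 and 4.24 there, and the difference of 4.60 in DMR 6 was the largest gain of the 25. DMR 7 held 0 CpG sites in 190 bp, and the 200 bp on each side of it together held 1. Repeat masking covered 63.2% of DMR 7, and its part in the value was not tested.

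In the first intron of Rbms3, DMR 1 (117387267 to 117388014) fell from 4.61 in control to 2.66 in MMS and DMR 2 (117366914 to 117368311) rose from 2.73 to 4.88, 18955 bp apart. DMR 4 (117067553 to 117068173) rose from 2.36 to 4.46, and DMR 5 (116962754 to 116963311) fell from 5.02 to 3.55. In these 4 both groups were above their lowest values, and the differences of -1.95, 2.15, 2.10 and -1.47 were smaller than those against a group at its lowest value.

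Rbms3 DMR 3 (117110100 to 117110265) was the only DMR of the 25 that reached into coding sequence. Its means, 6.09 in control and 4.58 in MMS, stand for 68.1 and 23.9 normalised reads, and the control mean was the highest group mean of the 25. The DMR crossed the start of exon 3, with 16 bp in a 155 bp exon of 3 annotated transcripts or 19 bp in a 158 bp exon of 7, whose splice acceptors lie 3 bp apart. The exonic stretch, on the minus strand, is given because it holds the first exonic base of both forms.
Rbms3 exon 3 start: cagtcctatgcaccagctc

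Msi2, a translational regulator of neural and blood progenitors, spans 379 kb on chromosome 11 (88339382 to 88718513, minus strand). Both of its DMRs were higher in MMS with control above its lowest value. DMR 1 (88688004 to 88689870) rose from 2.82 in control to 5.84 in MMS, or from 7.06 to 57.3 normalised reads, and its MMS mean was the highest of the 25. DMR 2 (88684546 to 88685308) rose from 1.46 to 4.76. The differences, 3.02 and 3.30, were the largest of the 7 gains in which control was above its lowest value. The pair lay 2695 bp apart in the fifth intron, 56 and 646 bp from the nearest annotated exon and 29.6 and 33.6 kb from the gene start. DMR 1 was the widest of the 25 at 1867 bp and held 28 CpG sites.

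**Figure D2:**
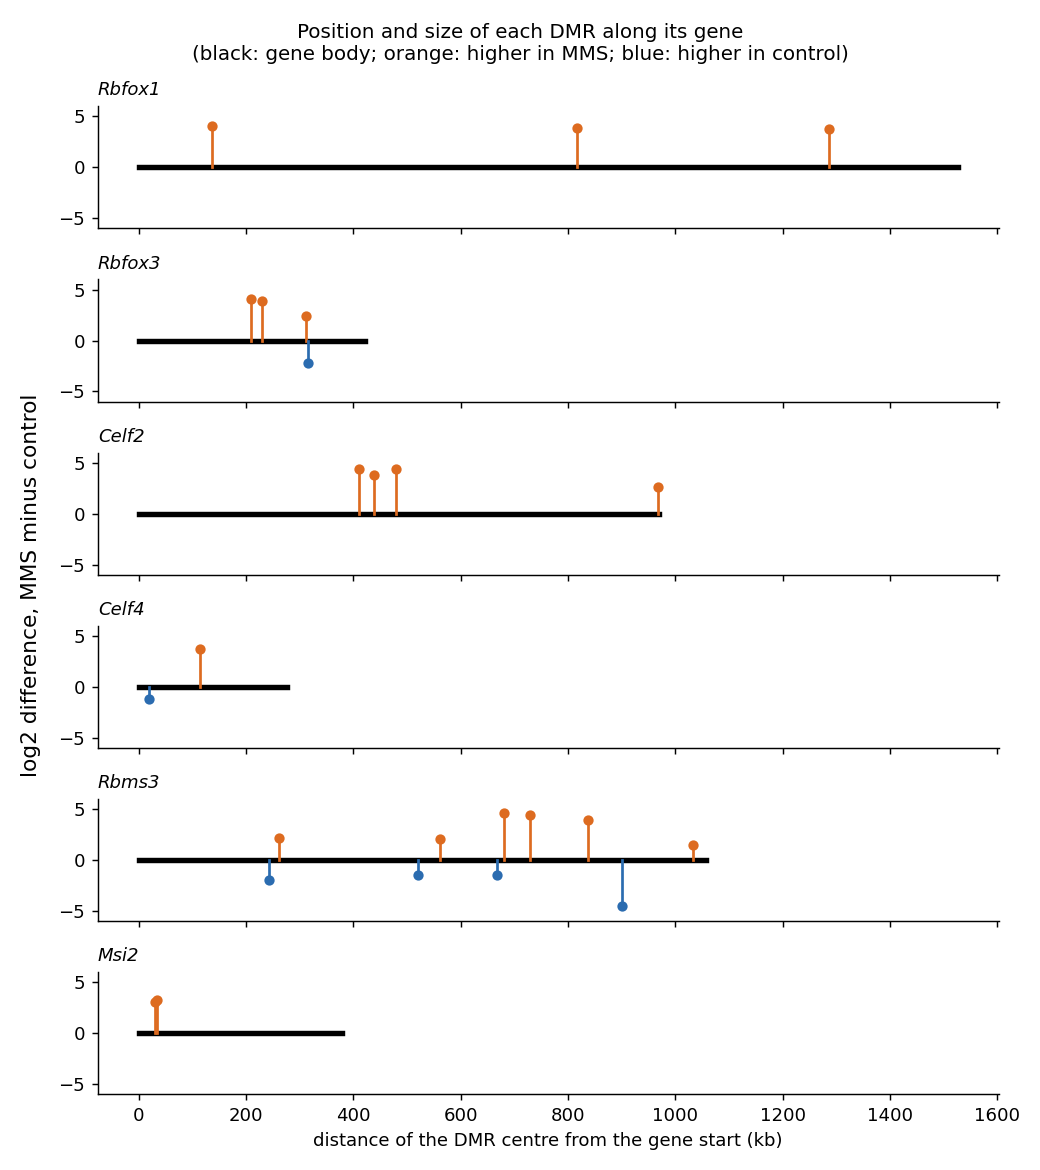
Log2 difference, MMS minus control (y axis), of each DMR against the distance of its centre from the gene start in kb (x axis), with the gene body as a black line, orange for DMRs higher in MMS and blue for those higher in control. In Rbfox1 and Celf2 each DMR points up, in Rbms3 the directions alternate in 7 of 9 adjacent pairs, and the pair in Msi2 lies near the gene start.

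Nova1, Elavl2, Elavl4 and Rbms1 had no listed DMR in the gene body or the 1000 bp upstream. Nova1, a splicing regulator, spans 124 kb on chromosome 12 (46694517 to 46818929), and the nearest listed DMRs were 781 kb upstream and 1265 kb downstream. Elavl2, 150 kb on chromosome 4 (91250763 to 91400785), had its nearest at 753 and 160.3 kb, and Elavl4, 148 kb on the same chromosome (110203722 to 110351909), at 109 and 107 kb. Rbms1, 213.0 kb on chromosome 2 (60750193 to 60963192), had its nearest at 154 and 111 kb. The paralogues Rbms1 and Rbms3 therefore stood at 0 and 10 DMRs, but Rbms3 is 1057 kb long, and the difference was not tested.

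Gene length went with whether a gene held a DMR. Over all protein-coding genes 19.3% held at least 1, against 79.9% of those over 300 kb and 57.4% of those over 100 to 300 kb. All 5 of the genes examined that are over 300 kb (Rbfox1, Rbfox3, Celf2, Rbms3 and Msi2) held a DMR, and 1 of the 5 shorter ones did (Celf4). Per 100 kb of gene and upstream window, Rbfox3 had 0.946 DMRs, Rbms3 0.945, Celf4 0.721, Msi2 0.526, Celf2 0.412 and Rbfox1 0.196. The median of genes over 300 kb was 0.321, with quartiles of 0.146 and 0.676. Rbfox3 and Rbms3 were thus above the upper quartile of long genes (86.6% and 86.2% of them had a lower density), while Rbfox1, the longest gene examined, was below their median but within the quartiles, with 30.2% lower. Celf4 belongs to the genes of over 100 to 300 kb, whose median was 0.531 with quartiles of 0 and 0.969. Of these, 60.3% had a lower density than Celf4.

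**Figure D3:**
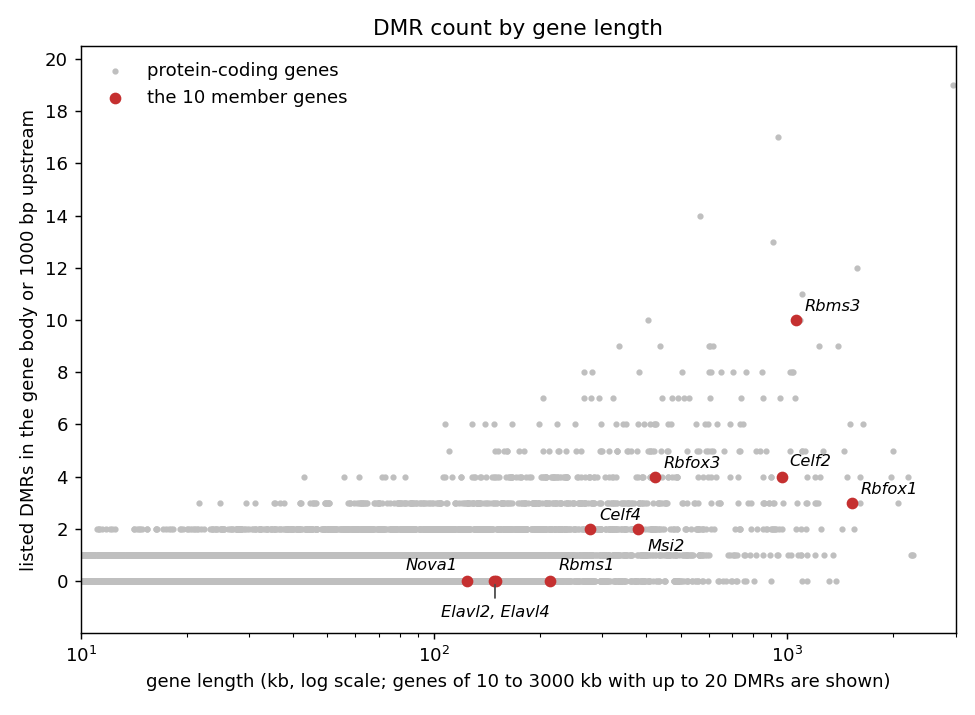
Number of listed DMRs (y axis) against gene length in kb on a log scale (x axis) for protein-coding genes (grey) and the 10 genes examined (red). Rbms3 sits at 10 DMRs near the upper edge for its length, Rbfox1 sits at 3, and Nova1, Elavl2, Elavl4 and Rbms1 sit at 0.

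By their centres, 24 of the 25 DMRs lay in introns, where 89.6% of all DMRs centred in a protein-coding gene did. None touched a promoter window (1000 bp upstream to 100 bp downstream of an annotated start), where 4.14% of all listed DMRs touched that of a protein-coding gene. The distance to the nearest annotated start ran from 9.60 to 226 kb with a median of 78.5 kb. The median width was 512 bp (544 bp over the table and 562 bp in DMRs of protein-coding gene windows), and 10 of 25 (40.0%) were under 300 bp, against 27.7% and 26.3%. The median CpG content was 1.38 per 100 bp, between the 1.32 of the table and the 1.43 of DMRs in protein-coding gene windows, with a range of 0 to 2.59. In 19 of 25 (76.0%) the content was above that of the DMR's own gene, with a median ratio of 1.38, where over the 6711 pairs of a DMR and a protein-coding gene, with a DMR in overlapping genes counted in each, the share was 64.9% and the median ratio 1.21. DMRs of Rbfox1 and Celf2, genes with 0.653 and 0.701 CpG per 100 bp, were each above their gene, while in Rbfox3 and Msi2 3 of 4 and 1 of 2 were below it. Repeat-masked bases made up a median of 17.6%, against 20.6% over the table and 16.4% in DMRs of protein-coding gene windows.

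**Figure D4:**
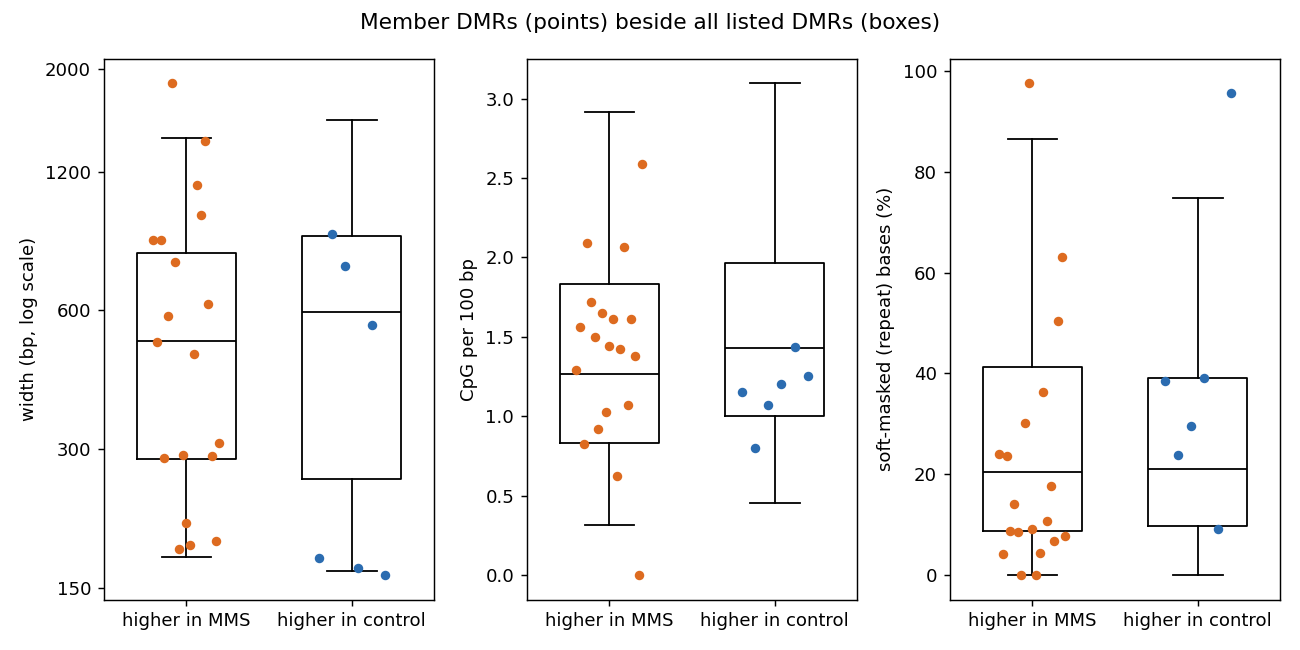
Width in bp on a log scale, CpG per 100 bp and soft-masked bases in percent (y axes) of the 25 DMRs (points; orange higher in MMS, blue higher in control) beside all listed DMRs of the same direction (boxes with the median and quartiles; whiskers span the 5th to 95th percentiles). Most points lie within the whiskers, and Rbms3 DMR 7 stands at 0 CpG per 100 bp.

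A list of 48 other genes for RNA-binding proteins was set beside these. In it 15 genes (31.25%) held a DMR, where 19.3% of all protein-coding genes did. They held 25 DMRs, of which 14 were gains in MMS (56.0%, against 62.6% of the table) and 11 were losses, with median differences of 3.21 and -1.77. Most of these genes are short, and 33 of the 48 are of 100 kb or less, of which 6 held a DMR, where 13.8% of all protein-coding genes of that length did. Of the 14 of over 100 to 300 kb, 8 held a DMR, where 57.4% of genes of that length did. Srrm4, a splicing factor for neuronal microexons, held the most with 4, of which 3 were higher in control, and the largest of these, -3.12, lay in a UTR. Mbnl2, a muscleblind splicing regulator, held 3, with differences of 4.83, -1.40 and 4.23. Among the genes with 2 DMRs, Rbms2 had differences of 5.16 and -0.98 and Rbm20 had 2.17 and 4.14. Rbfox2, the third RBFOX gene, had 1.83 and -2.46, and Stau2, which takes part in dendritic RNA transport, had 2.46 and 1.99. Igf2bp3, whose protein binds mRNAs and stabilises them, had -1.78 and -1.53, both higher in control. Opposite directions within a gene were thus also seen in Srrm4, Mbnl2, Rbms2 and Rbfox2.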

How the data were processed

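Hypothalamic DNA of male mice was sequenced after meDIP in 3 control and 3 MMS pools, with 1 IgG library and 1 input per group. The authors used Torrent Suite for alignment (mm10) and MACS2 2.1 for broad peaks against the inputs, with the human genome size setting per the paper's methods, and compared the groups with DiffBind and DESeq2. The deposited table gives log2 mean normalised reads over all samples, in the untreated and in the treated samples, read here as control and MMS. These are the authors' means, with no value or depth per library. The paper's methods also describe normalisation to the input of each group and subtraction with the IgG control. With 1 input per group, an effect of the input on these values cannot be told apart from MMS. Its columns of fold, p-value and FDR hold the authors' own comparison and were not used. In the labels, IgG and input libraries carry the methylcytosine antibody as well.

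DMRs were joined to GENCODE M21 protein-coding genes (21938, mitochondrial genes left out) with Python 3.11.15, pandas 2.3.3 and pysam 0.24.0. CpG, GC and masked bases were read from GRCm38, and BLAST 2.17.0 gave alignments of at least 100 bp and 95% identity. The assignment was tested on simulated data. No test between groups was possible. Groups came from the sample titles. Alternatives changed the assignment, the list of DMRs, the limit for a lowest value, the exon set, the CpG window and the length used.

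All 10 genes and each of their DMRs were named. Of the other RNA-binding protein genes, the rule named 5, by DMR count and then by the largest difference. Stau2, tied with the last of these, and Igf2bp3, the remaining gene with 2 DMRs, were named after their values were seen. The genes and lists were chosen with earlier results of these data known. The sequences of Rbfox1 DMR 1, Rbfox3 DMR 3, Msi2 DMR 1 and Rbms3 DMR 7 and DMR 9, the length classes, the adjacent pairs, the splice acceptor, the flanking CpG count and the shares over all DMRs for CpG against the gene, promoter windows and MMS at its lowest value were chosen after their values were seen.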

Additional observations from a re-analysis of the deposited data

How the results depend on the processing

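Of 51 values recomputed under alternatives, 47 stayed within the tolerance. It was 1.5 times for counts and densities, and the 95% interval over the DMRs for shares and medians. Densities by gene body alone left out only 1000 bp in genes of 124 kb or more, so these could hardly move. For the share higher in MMS the interval was wide, from 56.6% to 88.5%. For the median loss that interval rests on 6 DMRs and spans their whole range, so it says nothing about stability. The other 4 moved. Each median difference was taken over DMRs of a single direction, so its sign could not change. Assigning DMRs by centre, by gene body alone, with 5000 bp upstream, by 50% overlap or with RefSeq bounds gave 25 DMRs in 6 genes each time. The nearest listed DMR upstream of the genes examined lay 19.5 kb beyond the window (Msi2), so the upstream length could not alter this. With an absolute log2 difference of at least 2, 90% of the DMRs were higher in MMS in place of 76.0%, the count was 20 and the median loss -3.39 in place of -1.73, over 2 DMRs. With a higher group mean of at least 4 there were 18 DMRs in 5 genes, 66.7% higher in MMS, and Rbfox1 had none left. Introns held 19 in place of 24 when the longest protein-coding transcript alone was used, since 5 DMRs lie outside it. With DMRs of at least 300 bp the count was 15. With DMRs at a lowest value left out the count was 12 and the median gain 2.38 in place of 3.81. Under both of these limits, too, Rbfox1 had no DMR left. The limits on difference, group mean, width and lowest value keep fewer DMRs by construction. In the whole table the median gain was 3.43 and the median loss -1.73. A limit of 2 on the difference therefore takes out a larger part of the losses there too. Shares of the whole table under these limits were not computed, so the shares given here have no like value beside them.

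No paired analysis was possible because the table holds group means and no value per library, and for the same reason leaving out each replicate was not run. The table lists selected regions alone, the libraries are pools, and the size of a difference against a lowest value depends on where that value was set.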
